A study of Mus musculus with 3 samples.

Results

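The regions described here are the peaks that chromatin immunoprecipitation with sequencing (ChIP-seq) listed for Utf1 on mouse chromosome 3. They were taken by chromosome name alone from 2 deposited peak lists, and 1 interval of 44 kb was left out, which removed 12 peaks of the first list and 0 of the second. This left 6231 of 152608 peaks in a precipitation of biotin-tagged Utf1 (the biotin list) and 729 of 10506 peaks in a precipitation of endogenous Utf1 (the endogenous list). A further 2 biotin peaks on unplaced sequence of chromosome 3 were not counted. KH2, the source of both precipitations, is an established mouse embryonic stem cell line. It was kept in the labelled Standard Serum condition, a medium of 15% serum with LIF, on irradiated feeder fibroblasts. Chromatin was crosslinked for 5 min in 1% formaldehyde. Streptavidin beads are described for the biotin precipitation, although its antibody label is identical to that of the endogenous one. The study also has a whole-cell extract without precipitation, which was not analysed here. Each of the 3 groups has 1 library, so no value below has a replicate check, and whether the tagged cells are 1 clone is not stated in the labels.

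Utf1 binds chromatin in pluripotent cells and in the early embryo, and its name stands for undifferentiated embryonic cell transcription factor. In embryonic stem cells it is known to bind many promoters, including those of developmental regulators that Polycomb complexes hold silent, and to limit how much Polycomb is loaded there. Genes lie unevenly along mammalian chromosomes, in gene-rich segments alternating with long stretches with few genes, so the density of a promoter-associated protein can differ widely between chromosomes. The mouse autosomes have their centromere at one end, and numbering starts there.

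The question was whether peaks of either precipitation are sparse on chromosome 3, and whether they are sparse evenly or in blocks. Coordinates are mm9 and 1-based, and chromosome lengths were taken as the largest listed peak end, 159.6 Mb for chromosome 3. Peak width, tag count (sequenced fragments listed inside a peak, not scaled for depth), fold enrichment and p-value are the authors' own values per peak. Intervals are exact at 95% and cover counting error only, since neighbouring peaks are not independent and reads carry no molecular identifiers.

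Chromosome 3 had the lowest density of biotin peaks among the 19 autosomes and nearly the highest density of endogenous peaks. Biotin peaks numbered 39.1 per Mb (38.1 to 40.03), below each of the other 18 autosomes, the lowest of which was chromosome 14 with 44.7 and the highest chromosome 11 with 91.6. Endogenous peaks numbered 4.57 per Mb (4.24 to 4.91), above 17 of the other 18 autosomes, whose range was 2.81 to 4.60 per Mb. Only chromosome 4 was higher, at 4.60 per Mb (4.27 to 4.95), and its interval overlapped that of chromosome 3. The biotin interval of chromosome 3 did not overlap that of chromosome 14 (43.6 to 45.9). Chromosome 3 thus held 4.17% (4.07 to 4.27) of the autosomal biotin peaks and 7.58% (7.06 to 8.13) of the autosomal endogenous peaks. The 2 lists are not equally strict. On chromosome 3 the listed false discovery rate had a median of 0.32% and a maximum of 0.5% for biotin peaks. For endogenous peaks the median was 1.51% and the maximum 7.83%. Of the endogenous peaks there, 648 had a fold under 2, 88.9% (others 87.7 to 92.0%).

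**Figure D1:**
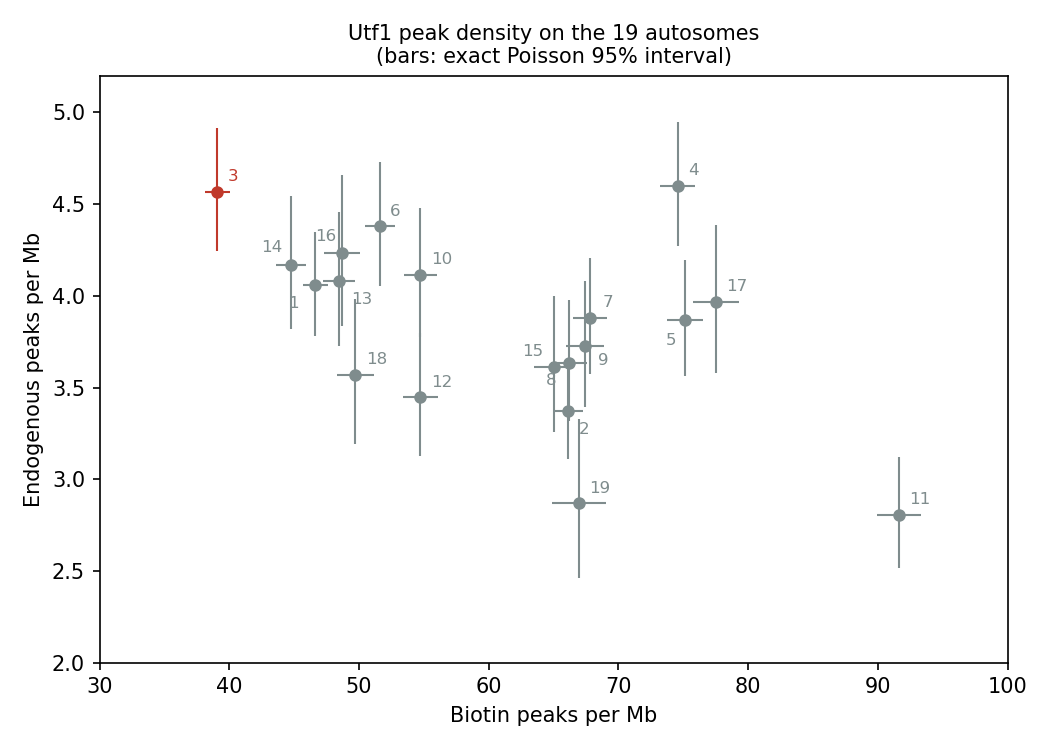
Peaks per Mb in the biotin list (horizontal axis) and the endogenous list (vertical axis), 1 point per autosome with its number, bars giving exact Poisson 95% intervals; both axes start above 0. Chromosome 3, in red, lies farthest left at 39.1 biotin peaks per Mb and near the top at 4.57 endogenous peaks per Mb.

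By sequence covered, chromosome 3 was also lowest in the biotin list. Biotin peaks covered 4.89% of chromosome 3, 7.80 Mb in all, against 5.73 to 13.6% of the other autosomes (median 9.28%). Endogenous peaks covered 0.295% of it, 0.471 Mb in all, above 17 of the other 18. The comparison was repeated with only the stronger 50% of each list by fold. Chromosome 3 was still lowest in the biotin list, with 20.3 per Mb against 21.9 to 45.2. In the endogenous list it had 2.44 against 1.48 to 2.43, nearly level with the highest of the others. Peaks of equal fold at the cut were kept or dropped by their order in the list, so no rank is drawn from that difference. Among endogenous peaks of at least 16 tags, which leaves out the many peaks close to the lower limit of that list, 16 of the other 18 autosomes were lower and 2 higher.

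The name of a gene-poor chromosome could not be checked against an mm9 annotation, which was not used here. The RefSeq gene table of another assembly, GRCm38.p6, lists 983 protein-coding genes for chromosome 3 and 511 to 2030 for the other autosomes. Set against these counts, chromosome 3 had 6.34 biotin peaks per gene, and 16 of the other 18 autosomes had more, up to 9.77. It had 0.742 endogenous peaks per gene, the highest value of the 19, the next being 0.664 on chromosome 1. Of the other autosomes, 7 are listed with fewer genes than chromosome 3, so by these counts it was not the autosome with the fewest genes. The counts are not divided by length, and chromosome 3 is longer than 16 of the other 18. Some shorter autosomes nevertheless list more genes, for example chromosome 4 with 1328 on 155.6 Mb and chromosome 11 with 1609 on 121.8 Mb. By these counts genes lie more sparsely on chromosome 3 than on either. For autosomes that are shorter with fewer genes, or longer with more, the counts alone do not decide. Genes per Mb were not computed.

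Along the chromosome, very dense windows were few, windows of middling to low density were many, and long nearly empty blocks were no more common than elsewhere. Chromosome 3 was divided into 157 windows of 1 Mb, which held between 4 and 189 biotin peaks, with a median of 24. This median was the lowest of the 19 autosomes, the others having 26 to 83. The 90th percentile was 91.2 peaks, also the lowest (others 97.5 to 220.4), whereas the 10th percentile was 9 peaks, within the range of the others (8 to 13.1). No window of chromosome 3 was empty of biotin peaks.

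Windows with over 80 biotin peaks numbered 20 of 157, 12.7% (7.96 to 18.99), the lowest share of the 19 autosomes, the others ranging from 16.9 to 51.3%. These windows held 36.9% of the biotin peaks of chromosome 3, against 41.4 to 82.5% elsewhere. Over 150 peaks were found in 2 windows, 1.27% (0.155 to 4.53), and the median over the other autosomes was 12.0%. At the sparse end, 67 windows held up to 20 peaks, 42.7% (34.8 to 50.8), the highest share of the 19, the others ranging from 16.8 to 41.7%. Windows with up to 10 peaks numbered 22, 14.01% (8.99 to 20.4), an interval that holds the 11.6% found over the other autosomes. The share was higher on 3 of them. Of the 67 sparse windows, 45 thus held 11 to 20 peaks.

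**Figure D2:**
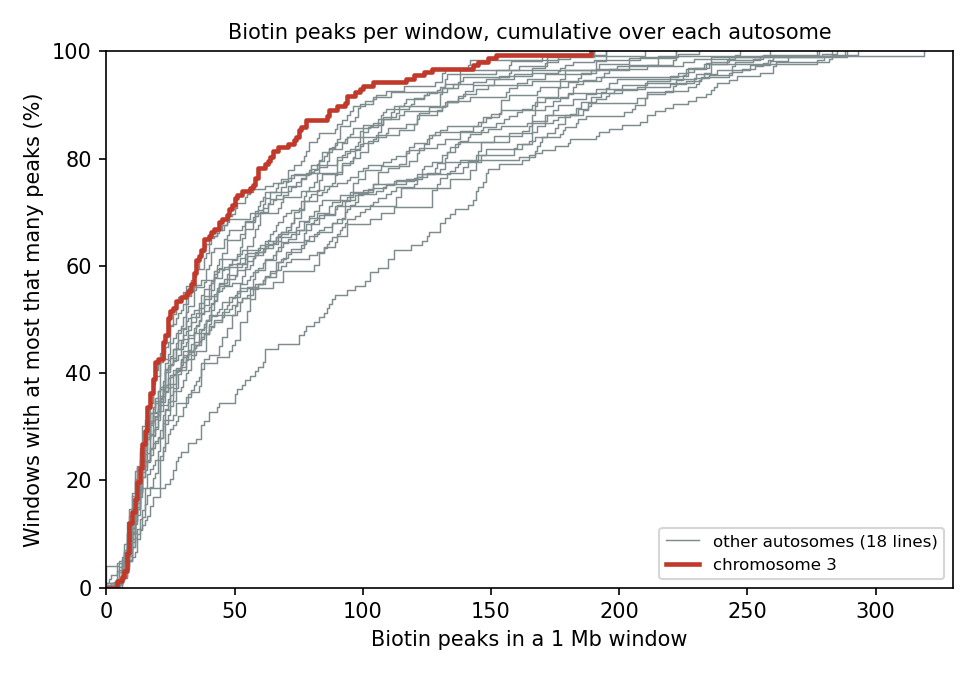
Share of 1 Mb windows (vertical axis, percent) that hold at most a given number of biotin peaks (horizontal axis), 1 line per autosome. The red line of chromosome 3 starts among the 18 grey lines of the other autosomes, lies above them all at 20 and at 80 peaks, and ends at 189 peaks in its densest window.

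Peak-poor blocks, defined as at least 3 neighbouring windows with up to 10 biotin peaks each, were rare. Chromosome 3 had 1 such block, from 110000001 to 113000000, with 24 biotin peaks and 13 endogenous peaks. The other autosomes had 0 to 3 blocks. With a limit of up to 20 peaks per window, chosen as an alternative, chromosome 3, the longest autosome but 2, had 10 blocks (others 1 to 9), which together took up 46 of its 157 windows. As a share of windows this was 29.3%, below the 31.25% of chromosome 16, and chromosome 1 had more in length, 51 Mb. The longest were of 8 Mb, from 42000001 to 50000000 with 101 biotin and 56 endogenous peaks, and from 70000001 to 78000000 with 85 and 31. A block of 6 Mb, from 109000001 to 115000000, held 61 biotin and 20 endogenous peaks, and contained the block found with the stricter limit. A block of 5 Mb from 60000001 to 65000000 held 78 and 39, and 4 Mb at the start of the listed sequence, 3000001 to 7000000, held 66 and 45.

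The 10 blocks were chosen by their number of biotin peaks, so that number is a description. Inside them were 580 biotin peaks, 12.6 per window, against 50.9 per window outside. The median biotin peak was 1019.5 bp wide with 53 tags and a fold of 4.83 inside, and 1034 bp with 49 tags and a fold of 4.31 outside. Of the biotin peaks inside, 47 of 580 lay on an endogenous peak, 8.10% (6.01 to 10.6), and outside 94 of 5651 did, 1.66% (1.35 to 2.03). The denominator of this share is the number by which the blocks were chosen, so the difference is also only a description. Pooled over the blocks, endogenous peaks were slightly denser inside, with 5.30 per window inside and 4.37 outside. This did not hold block by block. The blocks below 65 Mb had 4.67 to 11.25 endogenous peaks per Mb, the highest at 3 to 7 Mb. Those from 70 Mb on had 2 to 3.875, each below the value outside. Of the endogenous peaks, 18.9% (14.1 to 24.3) overlapped a biotin peak inside the blocks and 20.4% (16.9 to 24.3) outside. The strongest biotin peak inside the blocks had a fold of 13.1.

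The 20 windows with over 80 biotin peaks lay in 13 places, of which 9 were single windows and 4 were runs of neighbouring windows. The 5 windows with the most biotin peaks were 89 to 90 Mb with 189, 88 to 89 Mb with 152, 101 to 102 Mb with 149, 9 to 10 Mb with 145 and 51 to 52 Mb with 143. The first of these held 304.5 kb of peak sequence, and the median window held 29.1 kb. Of these 5, the windows at 9, 51 and 101 Mb stood alone. The runs of neighbouring windows, 11 windows in all, were from 87 to 90 Mb, with 458 biotin and 4 endogenous peaks, and from 94 to 98 Mb, with 415 and 18. The shorter runs lay at 107 to 109 Mb, with 218 biotin peaks and 1 endogenous peak, and at 152 to 154 Mb, with 194 and 7.

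Between neighbouring biotin peaks on chromosome 3 the median gap was 7.83 kb, the largest of the 19 autosomes (others 2.34 to 6.67 kb). Gaps of over 200 kb numbered 83 and made up 14.8% of the chromosome, a share exceeded on 4 other autosomes. The longest ran from 142764331 to 143509339, 745 kb, and contained 2 endogenous peaks. The next were 717 kb from 150179313 to 150896764, with 1 endogenous peak, and 686 kb from 124919309 to 125605309, with 0. The 10 longest biotin gaps, 5.26 Mb in all, held 4 endogenous peaks, 0.760 per Mb, against 4.57 per Mb over the whole chromosome. Endogenous peaks that overlap a biotin peak cannot lie wholly in such gaps but count in the latter value. The choice of gaps thus fixes part of the difference, which is only a description.

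Most of the longest endogenous gaps held biotin peaks at more than the density of the whole chromosome. The 10 longest, of 1233 to 1964 kb, covered 15.4 Mb and held 1052 biotin peaks, 68.5 per Mb, against 39.1 per Mb over the whole chromosome. Gap by gap the density ran from 21.3 to 186 per Mb with a median of 51.7, above that of the chromosome in 8 gaps and below it in 2. The longest, from 108049744 to 110014016, held 101 biotin peaks, and the next, from 87869790 to 89723506, held 344. Without the latter the pooled density was 52.5 per Mb. Spearman's rho of biotin against endogenous counts over the 157 windows was −0.16, given as a description because windows are not independent and share their position. On the other autosomes rho ran from −0.47 to −0.12.

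Endogenous peaks were concentrated at the centromere-proximal end of chromosome 3, and to some degree at that of every other autosome. In the first 20 Mb of listed sequence there were 188 of the 729 peaks, 9.40 per Mb, against 3.96 per Mb in the rest, a ratio of 2.37. The density in the first 20 Mb was the highest of the 19 autosomes, the others having 3.80 to 8.35 per Mb. Each of the others was also denser there than in its rest, with ratios of 1.14 to 2.40 and a median of 1.58. Only chromosome 14, at 2.40, exceeded the ratio of chromosome 3. In the rest of the chromosome the density was above 15 of the other 18 autosomes, which ran from 2.52 to 4.41 per Mb. Biotin peaks were not concentrated there, with 29.95 per Mb in the first 20 Mb and 41.2 per Mb in the rest. The length of 20 Mb was chosen after the windows had been seen.

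The window with the most endogenous peaks was the first listed, 3 to 4 Mb, with 22 endogenous and 16 biotin peaks. It was followed by 22 to 23 Mb with 17 and 37, 15 to 16 Mb with 15 and 15, and by 7 to 8 Mb with 13 and 24 and 14 to 15 Mb with 13 and 25, taken by position from 4 windows with 13. These 5 windows lay below 23 Mb, but the other windows with 13 were at 16 to 17 Mb and at 106 to 107 Mb. In the first 20 Mb, 36 of 188 endogenous peaks lay on a biotin peak, 19.1% (13.8 to 25.5), and 20.1% (16.8 to 23.8) did in the rest. Their medians of 14 tags and a fold of 1.57 were identical within and beyond it. On chromosome 14, which had the nearest ratio, 7.78% (4.21 to 12.9) of endogenous peaks in the first 20 Mb lay on a biotin peak.

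**Figure D3:**
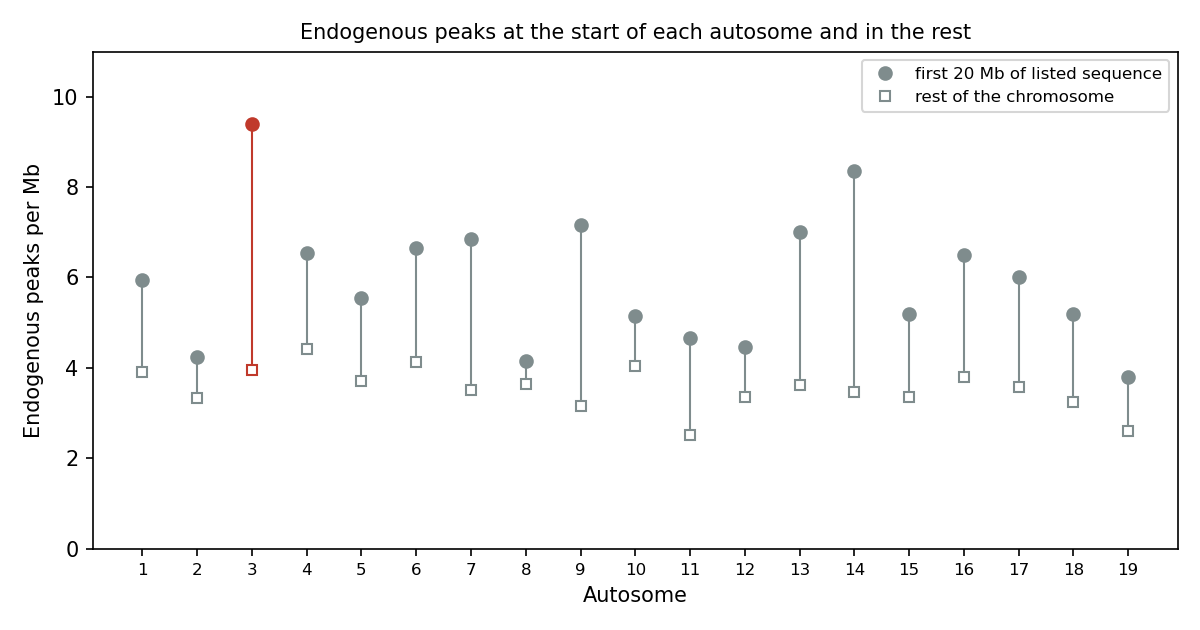
Endogenous peaks per Mb (vertical axis) in the first 20 Mb of listed sequence (filled circles) and in the rest (open squares) of each autosome (horizontal axis). On chromosome 3, in red, the values are 9.40 and 3.96 per Mb, and the circle lies above that of every other autosome.

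Biotin peaks on chromosome 3 were slightly narrower than elsewhere. Their median width was 1033 bp (interquartile range 824.5 to 1443), against 1088 bp (853 to 1611) over the other autosomes, and 17 of the other 18 had a larger median. They had a median of 50 tags (33 to 99), against 53 (34 to 109). Their median fold was 4.31 (3.45 to 6.265), against 4.14 (3.28 to 6.03), so they were narrower and had fewer tags while their listed enrichment was not lower. Listed folds fall on common steps, 4.14 being listed for 177 and 4.31 for 158 biotin peaks of chromosome 3 and values between them for 47. Tags per kb of peak, 67.2, lay within the range of the others (65.1 to 69.1).

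Wide peaks were few. Peaks wider than 3 kb numbered 164, 2.63% (2.25 to 3.06), against a median of 5.16% over the other autosomes, and only chromosome 13 was lower, at 2.59%. Peaks wider than 5 kb numbered 33. The listed strength, 10 times the −log10 of a p-value, stood at the value 3100 for 34 peaks, 0.546% (0.378 to 0.762), the lowest share of the 19 (others 0.721 to 1.33%). The share of peaks with a fold of at least 10, 4.81% (4.30 to 5.38), was within the range of the others (4.36 to 5.41%). Peaks of high fold thus made up as large a share as elsewhere, and wide peaks a smaller one.

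Compared at the same local density, widths were closer. In windows with 41 to 80 biotin peaks the median width was 1008 bp (987 to 1033) on chromosome 3 and 1016 bp (1010 to 1022) on the other autosomes. With 81 to 150 peaks it was 1060 bp (1037 to 1085) and 1066 bp (1061 to 1071). In each of the 6 density classes the intervals of the medians overlapped. For the share of wide peaks the intervals were apart in 1 class: with 81 to 150 peaks per window, 3.32% (2.57 to 4.22) exceeded 3 kb on chromosome 3 and 4.43% (4.24 to 4.62) elsewhere. Windows with over 150 peaks held 5.47% of the biotin peaks of chromosome 3 and 36.1% of those of the other autosomes. With the other autosomes reweighted to the class make-up of chromosome 3, their share of peaks over 3 kb went from 5.37 to 2.93%, which lies inside the interval of chromosome 3.

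**Figure D4:**
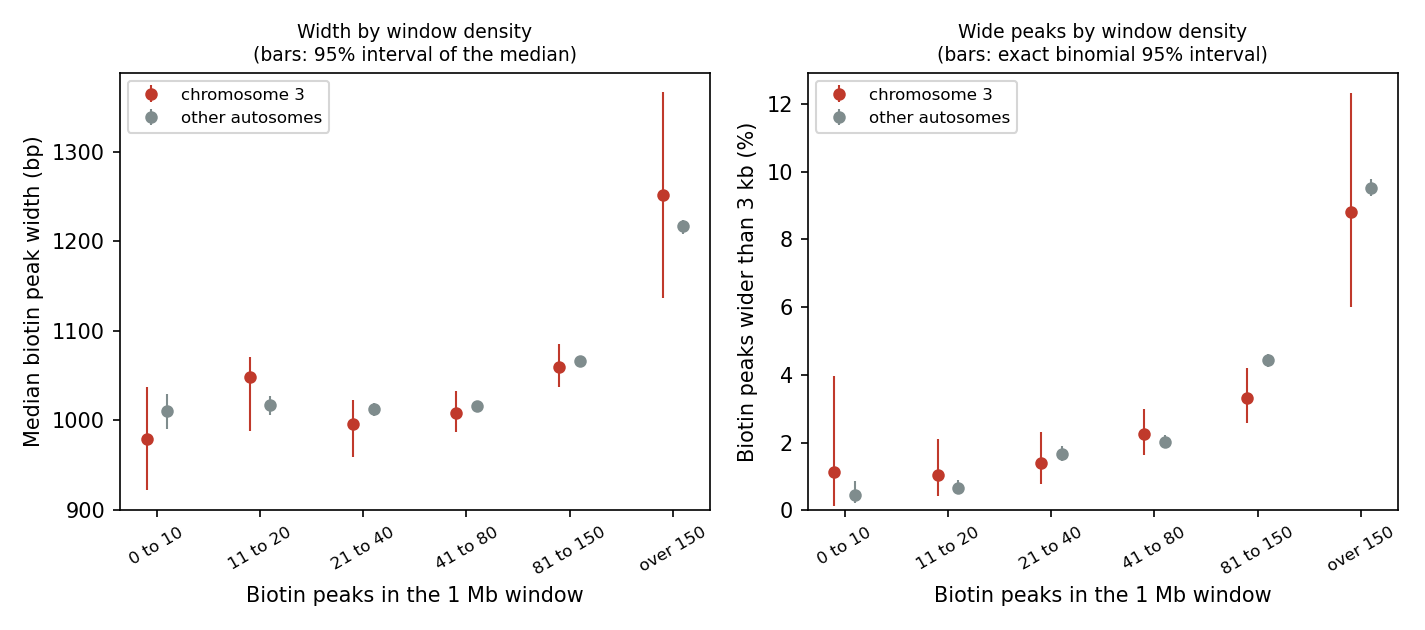
Median width of biotin peaks in bp (left, axis not from 0) and percent of biotin peaks wider than 3 kb (right), by the number of biotin peaks in the 1 Mb window, for chromosome 3 (red) and the other 18 autosomes (grey), with 95% intervals. Medians overlap in every class, and the share of wide peaks is apart only at 81 to 150 peaks, 3.32 against 4.43%.

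Endogenous peaks of chromosome 3 were like those elsewhere in width, tags and fold. The median was 597 bp, 14 tags and a fold of 1.57, each identical to the median over the other autosomes. Exactly 13 tags, the smallest count listed, were found in 305 peaks, 41.8% (38.2 to 45.5), against 40.97% elsewhere. With 21 to 100 tags there were 51 peaks, 6.996% (5.25 to 9.10), against 9.12% (8.53 to 9.74), and with more than 100 tags 7 peaks. In the endogenous list 2 peaks of chromosome 3 were wider than 2 kb and 0 wider than 3 kb.

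Endogenous peaks of chromosome 3 met a biotin peak about as often as those elsewhere, and biotin peaks met an endogenous peak more often. Overlapping by at least 1 bp, 145 of 729 endogenous peaks met a biotin peak, 19.9% (17.1 to 22.98), against a background of 18.6% over the other autosomes (17.8 to 19.4). From the other side, 141 of 6231 biotin peaks overlapped an endogenous peak, 2.26% (1.91 to 2.66), against a background of 1.14% (1.09 to 1.198). This was the highest share of the 19 autosomes, the others having 0.663 to 1.98%. The lists also differ in relative length there: chromosome 3 had 8.55 biotin peaks for each endogenous peak and the other autosomes 16.1. Biotin peaks covered less of chromosome 3, 4.89% against a median of 9.28% of the other autosomes, and neither share is corrected for this.

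Within each class of local density the intervals of chromosome 3 and of the other autosomes overlapped, for both lists. The share of biotin peaks was nevertheless higher on chromosome 3 in every class up to 150 peaks per window, and lower above. In windows with up to 10 biotin peaks, 10.1% (6.07 to 15.4) of the biotin peaks of chromosome 3 and 8.19% (7.01 to 9.49) of those elsewhere overlapped an endogenous peak. With 41 to 80 peaks the shares were 1.30% (0.849 to 1.90) and 1.06% (0.938 to 1.202). Reweighted to the class make-up of chromosome 3, the share of biotin peaks of the other autosomes went from 1.14 to 1.93%. This is below the 2.26% of chromosome 3 and just inside its interval (1.91 to 2.66). Their share of endogenous peaks on a biotin peak went from 18.6 to 17.5%, farther from the 19.9% of chromosome 3 but inside its interval (17.1 to 22.98). The mean number of endogenous peaks per window, 4.64 on chromosome 3 and 3.92 elsewhere, became 4.29 elsewhere after the same reweighting. Among endogenous peaks the class furthest apart with more than 2 peaks was 21 to 40 per window, with 22.6% (16.9 to 29.2) on chromosome 3 and 16.5% (15.1 to 18.1) elsewhere. Of the 7 endogenous peaks of more than 100 tags, 0 overlapped a biotin peak, which leaves an interval of 0 to 40.96%, and 18.2% (12.2 to 25.5) of such peaks did elsewhere.

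**Figure D5:**
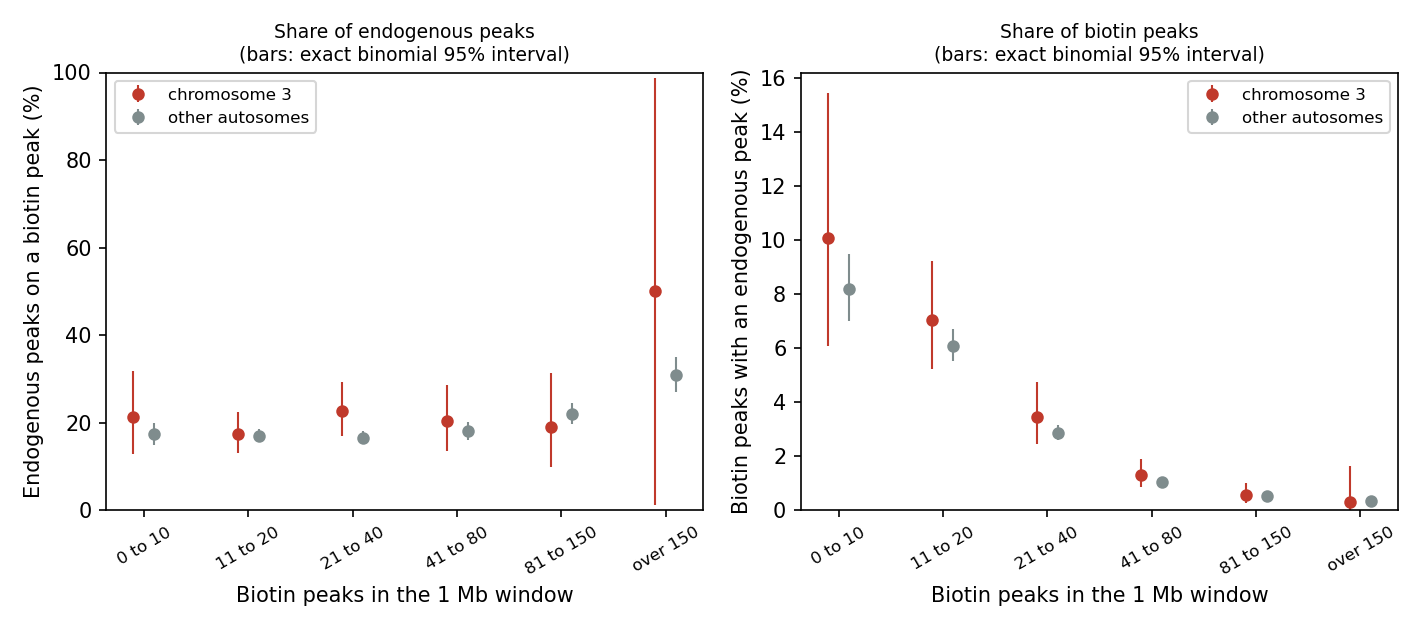
Percent of endogenous peaks that overlap a biotin peak (left) and of biotin peaks that overlap an endogenous peak (right), by the number of biotin peaks in the 1 Mb window, for chromosome 3 (red) and the other 18 autosomes (grey), with exact binomial 95% intervals. On the right both fall steeply with density, from 10.1 and 8.19% in the sparsest windows, and biotin peaks are the denominator there. On the left the class over 150 rests on 2 peaks of chromosome 3.

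Shared biotin peaks were wider and stronger at the median than the others. The 141 shared peaks had a median width of 1219 bp, 75 tags and a fold of 5.87, and the 6090 others 1028.5 bp, 49 tags and a fold of 4.31. The 145 shared and 584 unshared endogenous peaks had the same median of 14 tags, with folds of 1.55 and 1.57. By fold, 4.25% (3.20 to 5.52) of the strongest quintile of biotin peaks and 1.77% (1.11 to 2.66) of the weakest were shared, but the middle quintile had the lowest share, 1.04%. Among endogenous peaks the weakest quintile had the highest share, 29.0% (21.7 to 37.1), and the other 4 had 16.4 to 19.9%. The part of width in these shares was not tested. Unshared endogenous peaks lay a median of 7.36 kb from the nearest biotin peak (2.02 to 28.9 kb, interquartile range), 81 of them within 1 kb. In the 149 overlapping pairs the summits lay a median of 521 bp apart, against 496 bp elsewhere. They lay within 250 bp in 36 pairs, 24.2% (17.5 to 31.8), against 25.4%.

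The strongest biotin peak of chromosome 3 was the strongest of the whole list. It spanned 152148468 to 152150168, 1701 bp with its summit at 152149483, and had a fold of 30.84 and 615 tags (567 to 666). The next by fold was far lower, at 101183369 to 101184538, with 17.45 and 141 tags (119 to 166), and ranked 66th in the whole list. The other 3 of the first 5 were 137285016 to 137287628 (fold 16.77, 502 tags), 8716291 to 8719325 (fold 16.72, 315 tags) and 153387072 to 153388968 (fold 16.44, 286 tags). The nearest endogenous peak lay 35.0 to 252 kb from each of the 5. In all, 14 biotin peaks had a fold of at least 15, with 0 overlapping an endogenous peak, and at shares of 2.26% over all biotin peaks of chromosome 3 and 4.25% in the strongest quintile this is no result about them. They lay in windows of 9 to 149 biotin peaks, the sparsest at 159157792 to 159159083 with a fold of 15.79.

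Strong biotin peaks were found in sparse and dense windows alike. Windows with up to 10 biotin peaks had 9 of 179 peaks with a fold of at least 10, 5.03% (2.32 to 9.33). Windows with 41 to 80 had 101 of 2004, 5.04% (4.12 to 6.09), and windows with 81 to 150 had 91 of 1956, 4.65% (3.76 to 5.68).

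The widest biotin peak ran from 108197501 to 108211885, 14385 bp, with 1295 tags and a fold of 9.61. It was followed by 93083824 to 93097214, 13391 bp with a fold of 5.17, and 6296981 to 6307960, 10980 bp with a fold of 7.58. The latter had the most tags of chromosome 3, 1379 (1307 to 1454), lay in a window of 15 biotin peaks and alone among the 5 widest overlapped an endogenous peak, which had 15 tags and a fold of 1.76. The other 2 lay at 88044034 to 88053409 and 89181440 to 89189998, 9376 and 8559 bp wide, in windows of 152 and 189 biotin peaks.

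Long runs of biotin peaks were also fewer on chromosome 3, which had the fewest biotin peaks per Mb. Runs were not compared at the same local density. Merging peaks up to 1 kb apart gave 5279 stretches with 1.18 peaks each, the lowest number of the 19 autosomes (others 1.197 to 1.47), and 86.3% of stretches were single peaks, the highest share (others 74.3 to 85.3%). Stretches longer than 10 kb numbered 17, fewer than on each of the other autosomes (18 to 221). The 5 longest were 108194112 to 108219507, of 25.4 kb with 3 peaks, 87548714 to 87573683, of 24.97 kb with 7, 88030387 to 88053409, of 23.02 kb with 8, 89181440 to 89200974, of 19.5 kb with 4, and 95476105 to 95493913, of 17.8 kb with 5. They had 60.1 to 81.2 tags per kb. An endogenous peak was overlapped by 0 of the 5, and by 137 of all 5279 stretches, 2.60% (2.18 to 3.06). A stretch of 10.98 kb made of the peak at 6296981 alone had the densest tags of the 20 longest, 126 per kb.

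Of the 5 strongest endogenous peaks of chromosome 3, 1 overlapped a biotin peak, near the 19.9% of all its endogenous peaks. Listed first was 100119914 to 100120965, of fold 4.37 with 92 tags (74.2 to 113), and the nearest biotin peak lay 5.496 kb away. The next, 122011079 to 122011827, of fold 4.23 with 79 tags (62.5 to 98.5), overlapped a biotin peak with a fold of 5.31 and 94 tags. The others, at 21596907 to 21597978, 128639092 to 128640210 and 59723785 to 59724576, had folds of 3.91, 3.85 and 3.70 and lay 6.76, 16.4 and 116 kb from a biotin peak. Among endogenous peaks of chromosome 3 the most tags, 532, were counted at 8244505 to 8246856. The fold there was 1.45, below the median of its list on chromosome 3.

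The strongest shared region by the sum of ranks was 33148044 to 33149698, where the biotin peak had 228 tags at fold 10.72. Its endogenous partner, 33148741 to 33149789, had 29 tags (19.4 to 41.6) at fold 2.04, and the summits lay 737 bp apart. The next 4 pairs had biotin peaks at 5435186 to 5436950, 133304412 to 133306137, 3934494 to 3935970 and 15028147 to 15029417, with folds of 12.58, 10.48, 11.55 and 10.7. Their endogenous peaks had folds of 1.67, 1.85, 1.62 and 1.76 and 16, 15, 16 and 13 tags, close to the smallest count of the list. Their summits lay 1080, 128, 862 and 335 bp apart. Of the 5 pairs, 3 lay in the first 20 Mb of listed sequence, where 36 of all 145 shared endogenous peaks lay. With 5 pairs this is no result about them. Their windows held 15 to 35 biotin peaks, and the share of all pairs in such windows was not counted.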

How the data were processed

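ChIP-seq peaks of Utf1 were analysed in 2 libraries, 1 per group. The deposited files are peak lists, called per library. Per the submitters' processing notes, mm9 was the build and BWA 0.5.7 and R 2.15.2 were tools, with no role stated. The program that called peaks, its settings and its control: not given in the sources used here. Each deposited tag count is a whole number, unscaled, per the file headers. Fold enrichment was deposited as a linear ratio, strength as the −log10 of a p-value multiplied by 10, and false discovery rate as a percent, per the file headers. Only tags within peaks are listed, so the depth of the libraries is unknown, and list lengths do not measure occupancy.

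Peaks with the name chr3 were taken, without those touching 1 interval of 44 kb. A peak was counted in the 1 Mb window of its midpoint, from the first to the last window with a listed peak. Overlap meant at least 1 bp. With 1 library per group no p-value across peaks is given. Shares carry Clopper-Pearson and counts Poisson intervals at 95%, and medians carry binomial order-statistic intervals. Named regions were the 5 biotin and 5 endogenous peaks of largest fold, the 5 widest biotin peaks, the 5 longest stretches, the 5 pairs of smallest rank sum, the peak with the most tags in each list, the longest blocks, and the 5 windows with the most peaks of each list. Others named were chosen after their values were seen. The alternatives were other overlap criteria, windows, limits and thresholds. The members, settings and comparisons were chosen with earlier results of these data known. Density classes, the first 20 Mb and the reweighting were added after seeing the data. The window, block and overlap procedures were tested on simulated lists. The software was matplotlib 3.10.9, scipy 1.17.1, pandas 2.3.3 and numpy 2.4.6 under Python 3.11.15. Sequence under the peaks and genes near them were not analysed here.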

Additional observations from a re-analysis of the deposited data

How the results depend on the processing

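Of 72 alternative values for 15 results, 35 stayed close, 37 moved and 0 reversed. Close meant inside the 95% interval of the main value for shares and medians, and within 1.5 times it for the number of blocks, the rank correlation and the ratio of densities. Of the 72, 17 were chosen after seeing the data, among them keeping the left-out interval, which moved none. The chromosome 3 share of biotin peaks, 4.17%, became 3.74% by covered length, 4.34% for the stronger 50% by fold, 4.37% without the widest 10% and 4.71% after merging within 1 kb, and chromosome 3 stayed lowest of the autosomes per Mb under the first 3. The share of windows with at most 10 biotin peaks, 14.01% on chromosome 3 and 11.6% elsewhere, became 7.59 and 6.28% in 2 Mb windows, 1.27 and 1.81% with at most 5 peaks and 42.7 and 31.8% with at most 20. Elsewhere it was 15.97% in 0.5 Mb windows, where chromosome 3 had 19.1%. The single peak-poor block became 0 blocks with at most 5 peaks or at least 5 windows, 10 with at most 20 peaks and 5 with at least 2 windows. The share of endogenous peaks on a biotin peak, 19.9% on chromosome 3 and 18.6% elsewhere, became 13.3 and 12.5% when 50% of the shorter peak had to be covered, 4.94 and 4.78% with summits within 250 bp, 31.0 and 30.4% within 1 kb, 10.8 and 10.5% for the stronger 50%, and 23.8 and 21.9% with at least 16 tags. Without the widest 10% it was 17.0% elsewhere. The shared biotin share, 2.26%, became 1.48% with the 50% overlap, 0.578% by summits, 3.55% within 1 kb, 1.30% for the stronger 50% and 0.754% with at least 16 endogenous tags. For the stronger 50%, median widths became 1313 bp in the biotin and 606 bp in the endogenous list and median biotin tags 92. Merging gave 1097 bp and 57 tags in the biotin list. The rank correlation over windows, −0.16, became −0.25 in 2 Mb windows. Apart from shorter lists, other limits and merging, the cause was not tested. No paired analysis was possible because each group has 1 library, so no replicate could be left out either. Unknown library depth limits every statement on the length of a list.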
